A study of Mus musculus with 6 samples.

Results

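The genes of glycolysis, the pentose phosphate pathway and the hypoxia response were followed in mouse microglia exposed to lipopolysaccharide (LPS). They were chosen as a list of 38 genes by their known roles, with earlier results of these data known. Of the list, 29 genes had an annotated probe detected on at least 2 arrays and were tested, among 8598 genes in all. Microglia, the resident macrophages of the brain, came from mice at postnatal day 3 and were treated in culture. The groups were LRRK2KO and Ntg microglia after LPS for 24 h, LRRK2KO and Ntg microglia after LPS for 6 h, and LRRK2KO and Ntg microglia after phosphate-buffered saline (PBS) for 24 h. LRRK2KO cells derived from the B6.129X1(FVB)-Lrrk2tm1.1Cai/J strain, a line with a disrupted Lrrk2 (leucine-rich repeat kinase 2) gene, and Ntg cells from C57BL/6 mice. Strain background and genotype therefore cannot be told apart. Each of the 6 groups was measured on 1 Illumina beadchip array, so no group had replicates, and the LPS 6 h arm has no PBS array of its own time: treatment and time in culture differ together in its comparison with PBS.

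Glycolysis splits glucose into pyruvate and yields adenosine triphosphate and reduced nicotinamide adenine dinucleotide without oxygen, and lactate dehydrogenase recycles that cofactor by turning pyruvate into lactate. The pentose phosphate pathway branches off after the first step and supplies reduced nicotinamide adenine dinucleotide phosphate and ribose. Hypoxia-inducible factor 1 alpha (HIF-1 alpha), encoded by Hif1a, is hydroxylated and marked for destruction by the prolyl hydroxylases when oxygen is present, and once stable it induces many glycolytic genes. In macrophages, activation through Toll-like receptor 4, the LPS sensor, is known for a shift towards glycolysis and for production of itaconate by the enzyme that Acod1 encodes.

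On the arrays, 29.0% to 33.2% of probes passed detection (detection p under 0.01). Of 16 microglia markers, 13 were tested. The log2 of their summed normalized intensities, to which the brightest markers contribute most, lay between 15.51 and 16.51 on the 6 arrays. With LPS, 6 of the 13 were called lower at 24 h and 8 at 6 h against PBS, and 1 was called higher at each time, with medians of -0.64 and -0.71. Over all genes, 8.99% and 26.2% were called lower at these times, and 6.54% and 15.8% higher. Trem2 (-4.70 ± 0.26 at 24 h) and Cx3cr1 (-4.14 ± 0.48 at 24 h) were among the lower markers (adjusted p = 0.000916 and 0.00494). The part of this in the LPS differences of the metabolic genes was not tested. Of 10 astrocyte markers, 7 were tested. Against PBS, 1 was called higher and 0 lower at 24 h, and 2 higher and 0 lower at 6 h, with medians of -0.06 and 0.11. Gja1, called at both times, was at log2 levels of 9.11 to 11.08 on the LPS arrays. It was at 6.83 and 6.81 on the LRRK2KO and Ntg PBS arrays. Slc1a2 was called at 6 h (1.18, adjusted p = 0.00890). Gfap lay between 4.44 and 5.49 and passed detection only on the Ntg LPS 24 h and Ntg PBS arrays. The part of astrocytes in the LPS differences was not tested. Of 10 neuron markers Eno2 alone was tested, itself one of the glycolytic genes described here. In RNA from whole cultures, fewer cells of a type and less RNA per cell cannot be told apart. Levels are background-corrected, quantile-normalized log2 intensities, and since probes differ in brightness, only levels of the same probe were compared.

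A limma model of all 6 arrays, with an additive term each for genotype and for arm, gave the differences between arms on 2 residual degrees of freedom. They are given in log2 units with the standard error (SE), for 2 arrays per arm, and an adjusted p under 0.05 after Benjamini-Hochberg adjustment over all 8598 genes counts as a call. The 3 arms give 3 comparisons, and those with PBS share the PBS arrays. The 2 arrays of an arm are 1 LRRK2KO and 1 Ntg array. The spread behind the SE and the p-values therefore holds any difference between the genotypes in their response. It cannot be told apart from other spread. Whether the 6 RNA samples are from separate cultures or animals is not labelled. A p-value here measures only the spread among these arrays, part of which may be technical.

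LPS was accompanied by higher levels of genes for glucose entry, lactate export and the HIF-1 alpha subunit. After 24 h of LPS, 8 of the 29 tested genes were higher than after PBS: the glucose transporter gene Slc2a1, Hk1, Pfkl, Tpi1, the lactate exporter gene Slc16a3, Hif1a, Upp1 and Acod1. Another 3, Pfkm, Vegfa and Taldo1, were lower, and 18 did not pass. Over all genes tested, 6.54% were called higher and 8.99% lower in this comparison. The median difference of the 29 genes was 0.33, against -0.01 over all genes. The list was drawn up with earlier results of these data known, so comparisons of its shares with those of all genes carry no test.

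After 6 h of LPS, 8 genes were higher than after PBS (Slc2a1, Hk1, Pfkl, Pfkp, Slc16a3, Hif1a, Upp1 and Acod1) and 4 were lower (Pfkm, Pfkfb4, Vegfa and Pgls), against 15.8% and 26.2% of all genes. The median of the 29 genes was 0.08 and that of all genes was -0.13. Between the LPS times, 5 genes were higher at 24 h than at 6 h (Tpi1, Gapdh, Ldha, Pdk1 and Upp1) and 3 were lower (Pfkp, Taldo1 and Acod1), against 14.1% and 9.68% of all genes. The shares of the 29 genes called in this last comparison, and called lower in both comparisons with PBS, are near or below those over all genes.

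The split depended on the scaling of the arrays. With each array scaled to the median of its detected probes in place of quantile normalization, the median of all genes in the comparison of LPS 6 h with PBS moved by over 0.1, to 0.02, and 11 of the 29 genes were called higher and 3 lower. Between the LPS times the same scaling called 2 genes higher at 24 h (Pdk1 and Upp1) and 4 lower. Under it Tpi1, Gapdh and Ldha were no longer called, while scaling to the median of all probes kept the calls of Tpi1 and Ldha (adjusted p = 0.0160 and 0.0345).

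The number of called genes depended on single arrays. At LPS 24 h against PBS, 11 genes were called on all arrays, 3 with the LRRK2KO LPS 24 h array left out, and 2 each with the Ntg LPS 24 h, LRRK2KO PBS or Ntg PBS array left out; leaving out either LPS 6 h array gave 12. Slc16a3 and Upp1 were called in all 6 of these fits, which have 1 residual degree of freedom. At LPS 6 h against PBS, 12 genes were called on all arrays and 7 without the Ntg PBS array. Slc2a1, Hk1, Pfkm, Slc16a3, Upp1 and Acod1 were called in all 6 fits of that comparison. Between the LPS times, 8 genes were called on all arrays, 1 if either LPS 24 h array was dropped and 3 if the Ntg LPS 6 h array was.

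**Figure D1:**
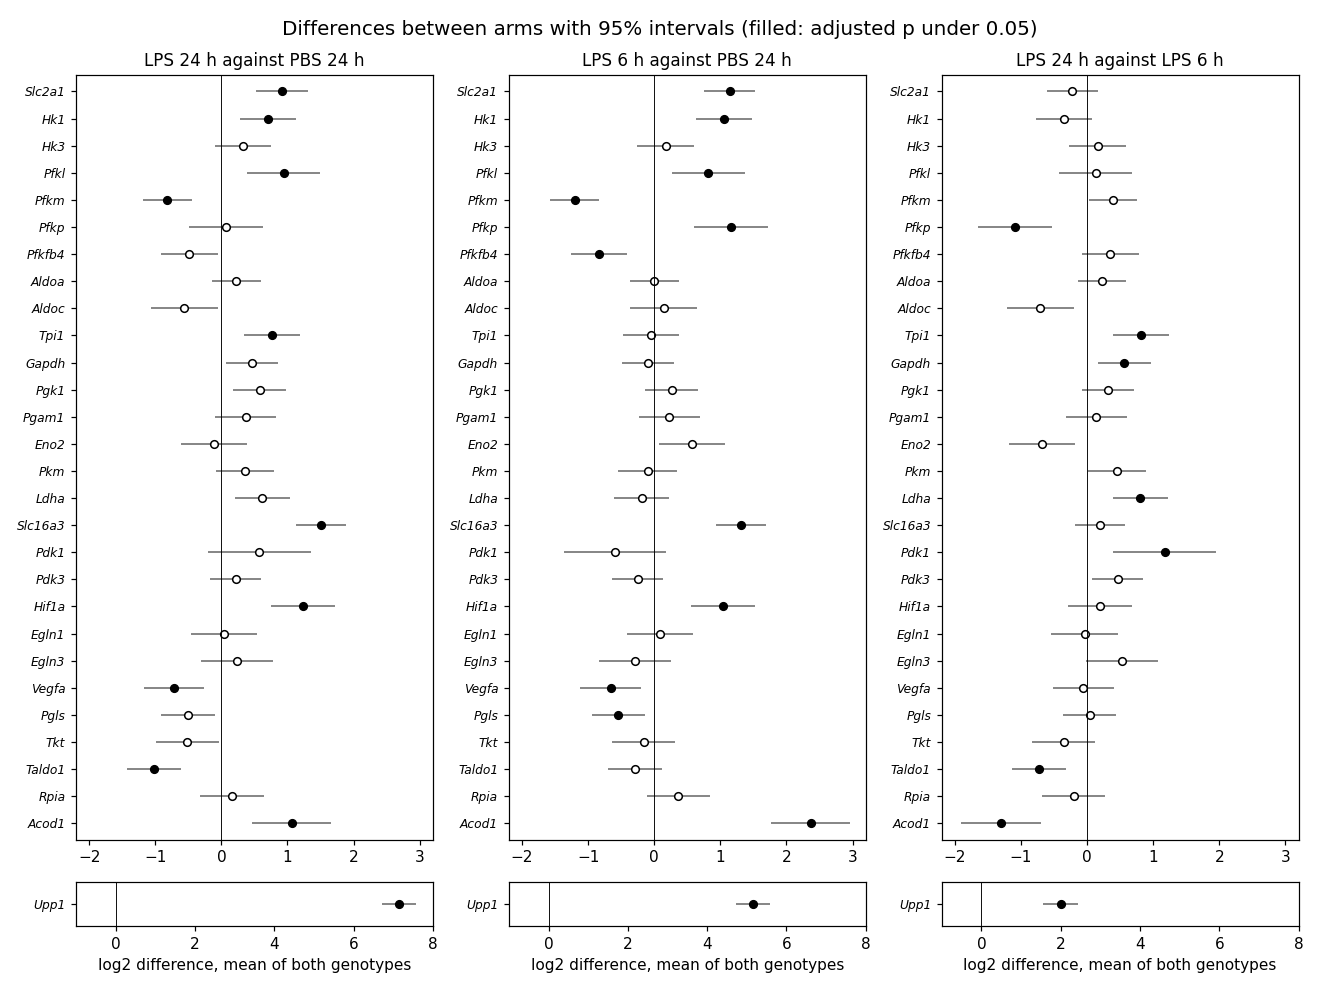
Log2 difference between arms, averaged over the genotypes (horizontal axis), for the 29 tested genes (rows), with a column of panels per comparison and Upp1 on a wider axis; points are the limma estimates, bars their 95% intervals, and filled points have an adjusted p under 0.05. Slc2a1, Slc16a3 and Hif1a are filled and right of 0 against PBS at both times, and the intervals of Tpi1, Gapdh, Pgk1 and Ldha include 0 at LPS 6 h.

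Because Hif1a and several known HIF-1 targets moved with LPS, the windows just before their start sites were read for the hypoxia response core, the letters ACGTG or GCGTG on either strand. The windows are the 250 bases before the most upstream start listed for each gene in the RefSeq promoter table (GRCm38.p6), which held all 38 genes. They are printed 5′ to 3′ on the gene's strand, with core matches in capitals; a CACGTG stretch holds a match on each strand. The set shows genes called higher with LPS at both times (Slc2a1, Slc16a3, Hif1a, Upp1), a gene called lower at both (Pfkm), and Ldha, a well-known HIF-1 target.
Slc2a1, chr4:119108495-119108744, plus strand: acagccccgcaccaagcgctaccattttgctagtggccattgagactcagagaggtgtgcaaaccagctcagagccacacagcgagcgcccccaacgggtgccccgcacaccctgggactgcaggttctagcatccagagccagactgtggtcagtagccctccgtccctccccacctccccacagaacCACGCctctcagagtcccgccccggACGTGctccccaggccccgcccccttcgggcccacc
Slc16a3, chr11:120948817-120949066, plus strand: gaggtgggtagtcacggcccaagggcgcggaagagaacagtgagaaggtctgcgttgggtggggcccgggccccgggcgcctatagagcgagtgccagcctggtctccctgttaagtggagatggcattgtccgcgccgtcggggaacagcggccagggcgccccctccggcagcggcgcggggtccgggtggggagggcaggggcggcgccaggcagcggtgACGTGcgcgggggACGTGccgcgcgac
Hif1a, chr12:73907617-73907866, plus strand: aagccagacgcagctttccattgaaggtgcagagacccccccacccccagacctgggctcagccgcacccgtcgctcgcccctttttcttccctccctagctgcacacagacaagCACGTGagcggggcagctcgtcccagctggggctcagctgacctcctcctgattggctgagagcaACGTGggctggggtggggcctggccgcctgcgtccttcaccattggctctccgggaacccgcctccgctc
Ldha, chr7:46845554-46845803, plus strand: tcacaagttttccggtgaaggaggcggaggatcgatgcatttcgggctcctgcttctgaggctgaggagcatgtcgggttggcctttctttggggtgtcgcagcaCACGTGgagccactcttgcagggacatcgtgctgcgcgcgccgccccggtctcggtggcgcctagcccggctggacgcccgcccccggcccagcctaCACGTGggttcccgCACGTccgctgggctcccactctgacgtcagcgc
Pfkm, chr15:98092339-98092588, plus strand: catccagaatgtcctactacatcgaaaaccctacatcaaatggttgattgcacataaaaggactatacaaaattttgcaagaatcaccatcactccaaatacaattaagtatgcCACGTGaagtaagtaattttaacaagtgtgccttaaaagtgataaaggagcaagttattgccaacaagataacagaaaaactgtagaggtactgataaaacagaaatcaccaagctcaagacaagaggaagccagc
Upp1, chr11:9117758-9118007, plus strand: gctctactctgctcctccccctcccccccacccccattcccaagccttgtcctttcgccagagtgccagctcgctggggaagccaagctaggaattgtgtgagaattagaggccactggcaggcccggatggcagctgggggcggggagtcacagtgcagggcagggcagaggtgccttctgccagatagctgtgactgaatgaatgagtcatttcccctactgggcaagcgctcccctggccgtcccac
The core occurs in 30 of the 38 windows (78.9%), in 22 of the 29 tested genes (75.9%), in 58.2% of the 7070 tested genes with a window and in 38.6% of all 27025 genes of the table. Of the 9 genes called higher with LPS at either time, 6 had a match (66.7%), and of the 5 called lower, 4 had one (80.0%), so matches stood before genes of both directions. Ldha had 5 matches, Hif1a 3, and Slc2a1, Slc16a3 and Pfkm 2 each, while the most upstream Upp1 window had 0. Several starts are listed for 12 of the 38 genes and for 1471 of the 7070 tested genes with a window. More windows give more places for a match, so shares over every listed window are not compared like for like. With every listed window read, genes that gained a match included Upp1 and Hk1. Counted this way, 35 of the 38 genes (92.1%), 8 of the 9 called higher and 5 of the 5 called lower had one, against 62.8% of the tested genes with a window. Median GC content was 60.0% in the windows of the listed genes, 60.0% in those of all tested genes and 52.0% over the table. The NF-kB consensus occurred in 5.3% of the listed genes' windows and in 8.7% of those of all tested genes. These matches describe letters in short windows and say nothing about binding.

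Glucose entry and its trapping in the cell come first. Slc2a1 encodes GLUT1, the main glucose transporter of macrophages. Its log2 level was 11.58 (LRRK2KO) and 11.25 (Ntg) after LPS for 24 h, 11.76 and 11.51 after LPS for 6 h, and 10.76 and 10.23 after PBS. Every LPS array lay above both PBS arrays. Slc2a1 rose by 0.92 ± 0.15 at 24 h (1.89-fold, adjusted p = 0.0143) and by 1.14 ± 0.15 at 6 h (2.21-fold, adjusted p = 0.00321). The 24 h call was lost without any 1 of the 4 arrays of its arms, with an adjusted p of at most 0.138.

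Hk1 encodes a hexokinase, which phosphorylates glucose and so keeps it in the cell. Its log2 level was 7.28 and 6.69 in LRRK2KO and Ntg cells after LPS for 24 h, 7.47 and 7.20 after LPS for 6 h, and 6.63 and 5.93 after PBS. The difference was 0.70 ± 0.17 at 24 h (adjusted p = 0.0424) and 1.05 ± 0.17 at 6 h (adjusted p = 0.00557). Leaving out any array of the 24 h comparison's arms lost that call, with an adjusted p of at most 0.278, and without background correction the differences were 0.38 at 24 h and 0.60 at 6 h. Hk3, a hexokinase of blood and immune cells, had log2 levels of 11.87 to 12.49 on all 6 arrays and passed no test between arms.

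**Figure D2:**
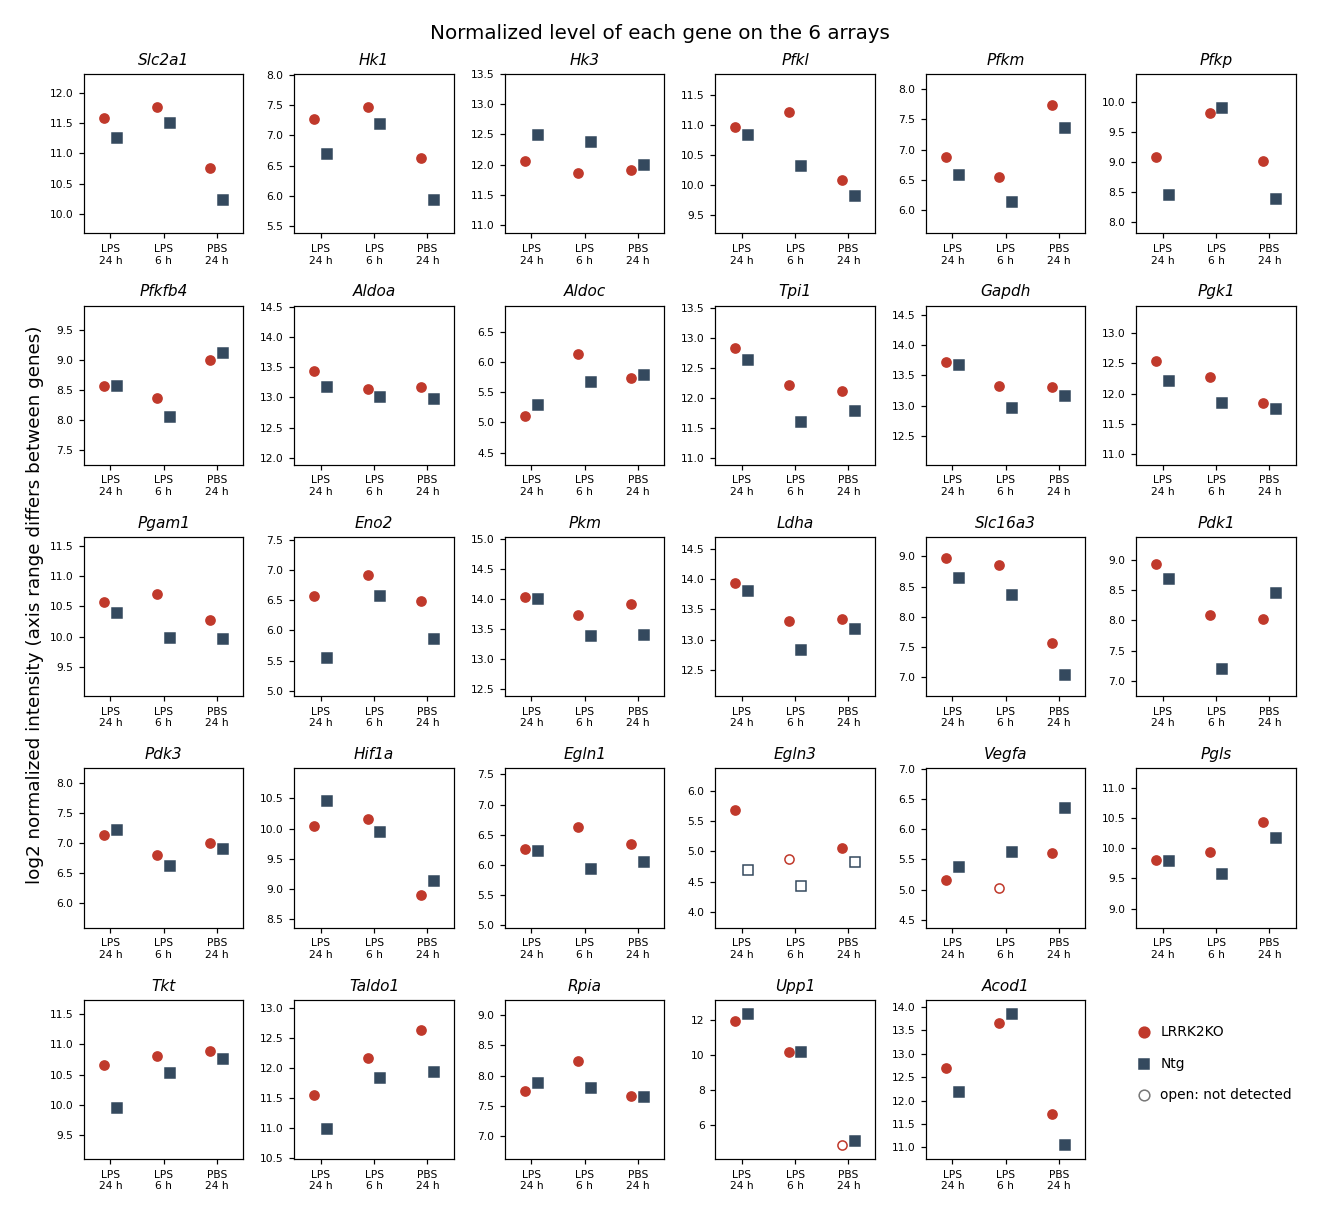
Normalized log2 level (vertical axis, with a range that differs between genes) of the 29 tested genes on the 6 arrays, with LPS 24 h, LPS 6 h and PBS 24 h from left to right; circles are LRRK2KO and squares Ntg arrays, each point is 1 array, and open points did not pass detection. Slc2a1 and Slc16a3 are higher on all 4 LPS arrays than on the PBS arrays, and the PBS levels of Upp1 are 4.86 (LRRK2KO, open) and 5.13 (Ntg).

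Phosphofructokinase commits sugar to glycolysis, and its 3 subunit genes moved differently. Pfkl, the liver-type subunit, had log2 levels of 10.96 and 10.83 in LRRK2KO and Ntg cells after LPS for 24 h, 11.22 and 10.32 after LPS for 6 h, and 10.08 and 9.83 after PBS. Pfkm, the muscle-type subunit, had 6.87 and 6.58 after LPS for 24 h, 6.55 and 6.13 after LPS for 6 h, and 7.73 and 7.36 after PBS. Pfkp, the platelet-type subunit, had 9.08 and 8.45 after LPS for 24 h, 9.81 and 9.89 after LPS for 6 h, and 9.01 and 8.38 after PBS. Pfkl was thus above PBS on all LPS arrays, Pfkm was below PBS on all of them, and Pfkp was above PBS on the 6 h arrays, with the 24 h and PBS arrays overlapping.

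Pfkl rose by 0.94 ± 0.22 at 24 h and by 0.81 ± 0.22 at 6 h (adjusted p = 0.0398 and 0.0298). Pfkm fell by 0.82 at 24 h and by 1.21 at 6 h, with an SE of 0.14 for each (adjusted p = 0.0167 and 0.00219). Pfkp rose by 1.16 ± 0.22 at 6 h (2.24-fold, adjusted p = 0.00973), differed by 0.07 ± 0.22 at 24 h (95% interval -0.47 to 0.61) and was lower at 24 h than at 6 h by -1.09 ± 0.22 (adjusted p = 0.0215). Without background correction the Pfkm differences were -0.52 and -0.72. The Pfkl rise at 6 h was 0.47 without the LRRK2KO LPS 6 h array (adjusted p = 0.0999), and its call was also lost without either PBS array (at most 0.151). The 24 h calls of Pfkl and Pfkm were lost without any 1 array of their arms, with adjusted p values of at most 0.281 and 0.166, and the Pfkp calls were lost without the Ntg PBS array at 6 h (0.0704) and without either LPS 24 h array or the Ntg LPS 6 h array between the LPS times (at most 0.179).

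Pfkfb4 belongs to the bifunctional enzymes that make and remove fructose 2,6-bisphosphate, the activator of phosphofructokinase. Its log2 level was 8.57 in both LRRK2KO and Ntg cells after LPS for 24 h, 8.37 and 8.06 after LPS for 6 h, and 8.99 and 9.11 after PBS, with all LPS arrays below the PBS arrays. It fell by 0.84 at 6 h (SE 0.17, adjusted p = 0.0116), a call lost without the Ntg LPS 6 h or the Ntg PBS array (adjusted p at most 0.0855), and differed by -0.48 ± 0.17 at 24 h (adjusted p = 0.114).

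In the middle of the pathway, Tpi1, triose phosphate isomerase, had log2 levels of 12.82 and 12.63 in LRRK2KO and Ntg cells after LPS for 24 h, 12.22 and 11.61 after LPS for 6 h, and 12.12 and 11.79 after PBS. It rose by 0.77 ± 0.17 at 24 h against PBS (adjusted p = 0.0319) and was higher at 24 h than at 6 h by 0.81 ± 0.17 (adjusted p = 0.0220), and its 6 h difference from PBS was -0.04 ± 0.17. The first call was lost without any 1 array of its arms (adjusted p at most 0.269) and the second without either LPS 24 h array or the Ntg LPS 6 h array (at most 0.209). Under scaling to the median of detected probes the difference between LPS times was 0.52 (adjusted p = 0.0676).

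Gapdh, glyceraldehyde 3-phosphate dehydrogenase, had 13.73 and 13.67 in LRRK2KO and Ntg cells after LPS for 24 h, 13.32 and 12.95 after LPS for 6 h, and 13.30 and 13.17 after PBS. It was higher at 24 h than at 6 h by 0.56 ± 0.16 (adjusted p = 0.0492), a call that every single left-out array removed (adjusted p 0.0501 to 0.348) and that scaling to the median of detected probes reduced to 0.17. Gapdh is often taken as a constant reference gene, and on these arrays its level spanned 12.95 to 13.73.

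Pgk1, phosphoglycerate kinase, which makes adenosine triphosphate, differed from PBS by 0.58 ± 0.16 at 24 h (adjusted p = 0.0600) and by 0.26 ± 0.16 at 6 h. Pgam1, phosphoglycerate mutase, differed by 0.37 ± 0.18 and 0.23 ± 0.18. Aldoa, the main aldolase, differed by 0.23 ± 0.14 at 24 h and by 0.00 ± 0.14 at 6 h. The 95% intervals of these genes' 6 h differences span -0.35 to 0.67, so changes of that size were not resolved with these arrays. Aldoc, an aldolase that also marks astrocytes, was dim at log2 levels of 5.10 to 6.13 and passed no test, and Eno2, the neuronal enolase, was at 5.54 to 6.92 and passed none. Genes such as Gapdh, Aldoa, Pgk1, Tpi1 and Ldha have close processed copies in the mouse genome, and whether their probes also bind those transcripts was not tested.

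Pyruvate is made by pyruvate kinase, encoded by Pkm, and is turned into lactate by lactate dehydrogenase, whose A subunit Ldha encodes. Pkm had log2 levels of 13.39 to 14.03 and passed no test between arms, with a difference of 0.36 ± 0.17 at 24 h and -0.10 ± 0.17 at 6 h. A second, dimmer Pkm probe had 7.52 and 6.98 in LRRK2KO and Ntg cells after LPS for 6 h, against 6.28 and 5.72 after PBS, a difference of 1.25 that the brightest probe did not show. With the detected probes of each gene averaged, Pkm was higher by 0.58 at 6 h (adjusted p = 0.0357). Ldha had 13.94 and 13.81 after LPS for 24 h, 13.31 and 12.82 after LPS for 6 h, and 13.33 and 13.18 after PBS. Ldha was higher at 24 h than at 6 h by 0.81 ± 0.16 (adjusted p = 0.0215) and higher at 24 h than after PBS by 0.62 ± 0.16 without passing (adjusted p = 0.0570). The difference between LPS times was 0.42 under scaling to the median of detected probes (adjusted p = 0.105) and lost its call without either LPS 24 h array or the Ntg LPS 6 h array (adjusted p at most 0.198).

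Slc16a3 encodes MCT4, the monocarboxylate transporter through which glycolytic cells release lactate. Its log2 level was 8.98 and 8.64 in LRRK2KO and Ntg cells after LPS for 24 h, 8.86 and 8.36 after LPS for 6 h, and 7.57 and 7.03 after PBS. All LPS arrays lay above both PBS arrays, and the times overlapped. It rose by 1.51 ± 0.15 at 24 h (2.84-fold, adjusted p = 0.00299) and by 1.31 ± 0.15 at 6 h (2.48-fold, adjusted p = 0.00188), and the LPS times differed by 0.20 ± 0.15. A second, dim Slc16a3 probe, detected on 4 arrays, differed by 0.21 and 0.48, so with the probes averaged the 24 h difference was 0.86 (adjusted p = 0.0191).

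Pyruvate dehydrogenase kinases switch off the entry of pyruvate into the mitochondrial cycle. Pdk1 had log2 levels of 8.94 and 8.69 in LRRK2KO and Ntg cells after LPS for 24 h, 8.09 and 7.19 after LPS for 6 h, and 8.02 and 8.46 after PBS. It was higher at 24 h than at 6 h by 1.17 ± 0.31 (2.25-fold, adjusted p = 0.0434), with the low Ntg LPS 6 h array weighing on the value: without it the difference was 0.67 (adjusted p = 0.176), and without either LPS 24 h array the adjusted p was at most 0.209. Pdk3 had levels of 6.62 to 7.21 and passed no test.

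Hif1a itself had log2 levels of 10.04 and 10.45 in LRRK2KO and Ntg cells after LPS for 24 h, 10.16 and 9.95 after LPS for 6 h, and 8.91 and 9.12 after PBS. All LPS arrays were above both PBS arrays. It rose by 1.23 ± 0.19 at 24 h (2.35-fold, adjusted p = 0.0119) and by 1.04 ± 0.19 at 6 h (2.06-fold, adjusted p = 0.00901), and the LPS times did not differ beyond their error (0.19 ± 0.19). The 24 h call was lost without the Ntg LPS 24 h array or either PBS array (adjusted p at most 0.117) and the 6 h call without the LRRK2KO PBS array (0.0554). These are transcript levels, and the amount of HIF-1 alpha protein, which oxygen controls after translation, was not measured.

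Among the other HIF genes, Egln1, the main prolyl hydroxylase of HIF-1 alpha, had levels of 5.93 to 6.63 and passed no test between arms. Egln3, a hydroxylase that HIF-1 itself induces, was detected on 2 arrays, LRRK2KO after LPS for 24 h (5.69) and LRRK2KO after PBS (5.06), and had 4.43 to 4.88 on the other 4. Vegfa, the angiogenic growth factor gene and a textbook HIF-1 target, had 5.16 and 5.37 in LRRK2KO and Ntg cells after LPS for 24 h, 5.03 and 5.62 after LPS for 6 h, and 5.61 and 6.35 after PBS. Vegfa fell by 0.72 at 24 h and by 0.66 at 6 h, with an SE of 0.18 for each (adjusted p = 0.0491 and 0.0311), close to background and below detection on the LRRK2KO LPS 6 h array. Without background correction these differences were -0.33 and -0.27 (adjusted p = 0.379 and 0.365), and every single left-out array removed the 24 h call (adjusted p at most 0.366), as did any array of its arms at 6 h (at most 0.192).

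None of the 4 tested pentose phosphate enzymes of the list (Pgls, Tkt, Taldo1 and Rpia) was called higher with LPS. Taldo1, transaldolase of the non-oxidative branch, had log2 levels of 11.54 and 10.98 in LRRK2KO and Ntg cells after LPS for 24 h, 12.16 and 11.82 after LPS for 6 h, and 12.64 and 11.93 after PBS. It fell by 1.02 at 24 h against PBS (SE 0.16, 2.03-fold lower, adjusted p = 0.0119) and was lower at 24 h than at 6 h by -0.73 ± 0.16 (adjusted p = 0.0259), while the 6 h difference from PBS was -0.29 ± 0.16 (adjusted p = 0.189). Leaving out any array of the arms lost the 24 h call (adjusted p at most 0.118), and the call between LPS times was lost without either LPS 24 h array or the Ntg LPS 6 h array (at most 0.204).

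Tkt, transketolase, had 10.66 and 9.95 in LRRK2KO and Ntg cells after LPS for 24 h, 10.80 and 10.53 after LPS for 6 h, and 10.89 and 10.76 after PBS, and its difference at 24 h was -0.52 ± 0.19 (adjusted p = 0.127). Pgls, the lactonase of the oxidative branch, had 9.80 and 9.79 after LPS for 24 h, 9.93 and 9.58 after LPS for 6 h, and 10.43 and 10.16 after PBS. Pgls fell by 0.54 at 6 h (SE 0.16, adjusted p = 0.0383), a call that every left-out array removed (adjusted p 0.0515 to 0.164) and that was -0.30 under scaling to the median of detected probes (adjusted p = 0.191). Rpia, ribose 5-phosphate isomerase, had 7.64 to 8.23 and passed no test.

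Upp1 showed the greatest difference of the 29 genes in both comparisons with PBS. It encodes uridine phosphorylase, which splits uridine into uracil and ribose 1-phosphate, a sugar that can be fed into the pentose phosphate pathway. Its log2 level was 11.94 and 12.35 in LRRK2KO and Ntg cells after LPS for 24 h, 10.15 and 10.14 after LPS for 6 h, and 4.86 and 5.13 after PBS, where the LRRK2KO array did not pass detection. In unnormalized intensity these are 4007 and 5505, 1086 and 1167, and 104 and 135. The 3 arms did not overlap. The rise was 7.15 ± 0.17 at 24 h (adjusted p = 5.89e-05) and 5.15 ± 0.17 at 6 h (adjusted p = 0.000161), and 24 h was above 6 h by 2.0 ± 0.17 (3.99-fold, adjusted p = 0.00321). Since the PBS levels lie near background, the size rests on the background correction: without it the differences were 5.34 and 3.42. Both other Upp1 probes were below detection on the PBS arrays, so only bounds can be given: set against the higher of the lowest detected signal and their own signal there, they were at least 61.5-fold and 94.5-fold higher at 24 h, and at least 14.3-fold and 18.9-fold higher at 6 h.

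Acod1 encodes the enzyme that turns cis-aconitate into itaconate, diverting carbon from the tricarboxylic acid cycle. It had log2 levels of 12.70 and 12.19 in LRRK2KO and Ntg cells after LPS for 24 h, 13.65 and 13.85 after LPS for 6 h, and 11.72 and 11.05 after PBS, so it was already well above background without LPS. The 3 arms did not overlap, and the 6 h arrays were the highest. It rose by 2.37 ± 0.24 at 6 h (5.16-fold, adjusted p = 0.00137) and by 1.06 ± 0.24 at 24 h (2.09-fold, adjusted p = 0.0355), and 24 h was below 6 h by -1.30 ± 0.24 (adjusted p = 0.0165). The 24 h call was lost without any 1 array of its arms (adjusted p at most 0.230), and the call between LPS times without either LPS 24 h array (at most 0.138).

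Of the other listed genes, 9 were not tested. Hk2, Gpi1, Eno1 and G6pdx had no annotated probe here. Pfkfb3, Ldhb, Slc16a1 and Bnip3 were below detection on all 6 arrays, with intensities of 90.0 to 120. Pgd, the third enzyme of the oxidative pentose branch, passed detection on 1 array, LRRK2KO after LPS for 6 h. For 16 of the tested genes 21 further probes were detected on at least 2 arrays. Their differences had the sign of the brightest probe in 18 of 21 cases at LPS 24 h against PBS, in 17 at LPS 6 h against PBS and in 14 between the LPS times. Of the probes that belong to called genes, 11 of 11, 11 of 12 and 6 of 6 had the same sign, the exception being Pgls at 6 h. These counts include both further Upp1 probes, which passed the detection filter only through LPS arrays. Their sign against PBS was therefore set by the filter and adds no support.

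**Figure D3:**
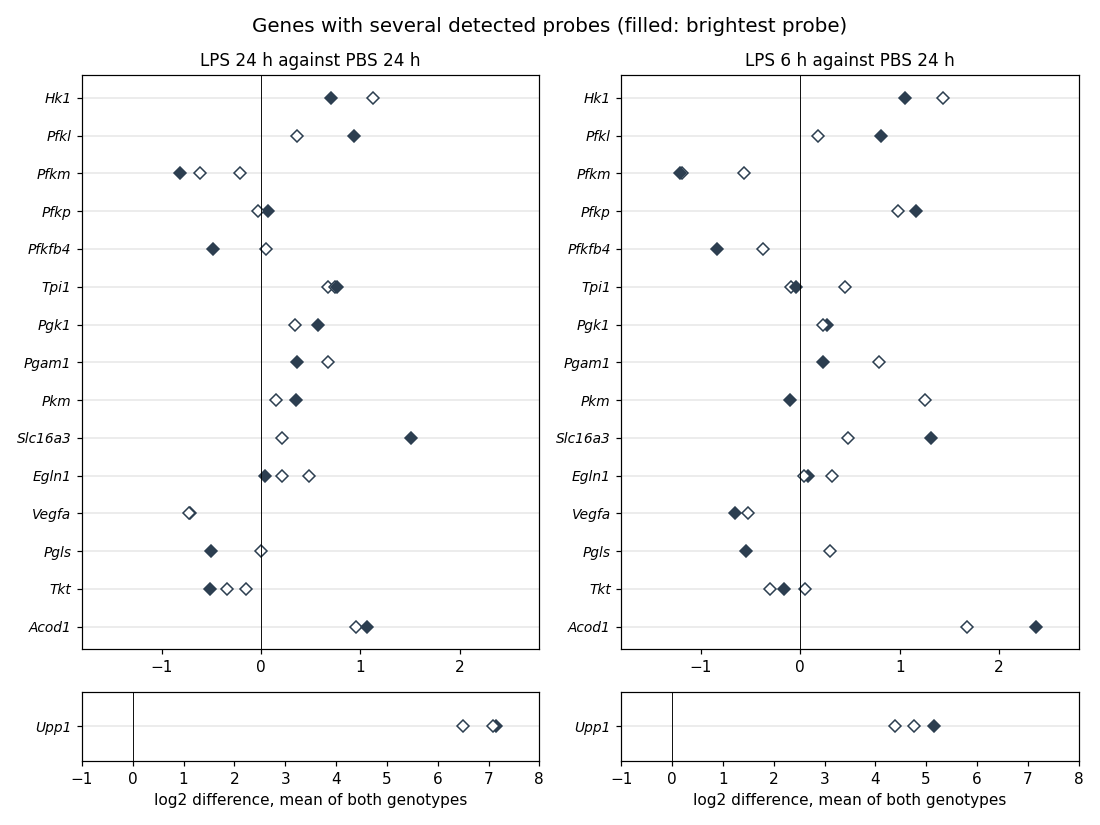
Log2 difference of each detected probe (horizontal axis) for the 16 genes with several detected probes (rows), at LPS 24 h and LPS 6 h against PBS, with Upp1 on a wider axis; each diamond is 1 probe, and the filled one is the brightest. The 3 Upp1 probes lie far to the right, although the open ones were below detection on the PBS arrays, and the Pkm probes lie at -0.10 and 1.25 at LPS 6 h against PBS.

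Genes of neighbouring pathways were taken from further lists. Over all genes, 6.54% were called higher and 8.99% lower at LPS 24 h against PBS, and 15.8% and 26.2% at LPS 6 h against PBS. The counts of the lists were not tested against these shares. Of 34 other genes of glycolysis and pyruvate use, 16 were tested: 1 was higher and 1 lower at LPS 24 h against PBS, and 1 higher and 8 lower at LPS 6 h against PBS. The higher one was at both times Slc2a6, a lysosomal hexose transporter gene (0.98 ± 0.22 and 1.27 ± 0.22, adjusted p = 0.0342 and 0.00680), and the lower ones included Pfkfb2 (-1.02 ± 0.15 at 6 h, adjusted p = 0.00478), Slc2a8 (-0.94 ± 0.15) and Adpgk (-0.85 ± 0.17). The list's median was -0.55 at 6 h, against -0.13 over all genes. Of 10 other pentose phosphate and ribose genes, 8 were tested; 0 were called at 24 h, and at 6 h Idnk was higher (0.81 ± 0.17) and the ribose phosphate synthase gene Prps2 lower (-1.07 ± 0.20).

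Of 36 other HIF pathway genes and targets, 28 were tested. At LPS 24 h against PBS 6 were higher and 1 lower, against 6.54% and 8.99% of all genes. At LPS 6 h against PBS 12 were higher and 4 lower, against 15.8% and 26.2%. Between the LPS times 3 were higher and 7 lower at 24 h, against 14.1% and 9.68%. Adm, the adrenomedullin gene, rose by 1.41 ± 0.24 at 24 h and by 3.08 ± 0.24 at 6 h (adjusted p = 0.0160 and 0.000716). Hilpda, a lipid droplet protein gene, rose by 2.97 ± 0.16 at 6 h (adjusted p = 0.000301) and was lower at 24 h than at 6 h by -2.19 ± 0.16. Ak4, an adenylate kinase gene, rose by 1.65 ± 0.21 at 24 h, and Ndrg1 was higher at 24 h than at 6 h by 1.93 ± 0.28 (adjusted p = 0.00682 and 0.00966). Medians of this list were 0.28 at 24 h and 0.42 at 6 h, against -0.01 and -0.13 over all genes.

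Of 23 genes listed for the tricarboxylic acid cycle, 20 were tested. The list also holds genes beside the cycle, such as the cytosolic Idh1 and the carrier gene Slc25a10. At LPS 24 h against PBS 0 were higher and 1, Idh1, was lower, against 6.54% and 8.99% of all genes. At LPS 6 h against PBS 0 were higher and 10 lower, against 15.8% and 26.2%. Between the LPS times 4 were higher and 0 lower at 24 h, against 14.1% and 9.68%. Idh1, the cytosolic isocitrate dehydrogenase gene, was lower at both times (-1.49 ± 0.20 and -1.70 ± 0.20, adjusted p = 0.00720 and 0.00210), and the mitochondrial Idh3a was lower at 6 h by -1.02 ± 0.15 (adjusted p = 0.00485). Of 18 genes of pyrimidine nucleoside metabolism, the setting of Upp1, 9 were tested, to be read beside the same shares of all genes. At LPS 24 h against PBS 1 was higher and 0 lower, and at LPS 6 h against PBS 2 were higher and 3 lower. Between the LPS times 3 were higher and 1 lower at 24 h. Slc28a2, a nucleoside transporter gene, was higher at 24 h by 3.81 ± 0.17 and at 6 h by 2.50 ± 0.17 (adjusted p = 0.000575 and 0.000541), while Cad and Dhodh, of pyrimidine synthesis, were lower at 6 h by -1.05 ± 0.14 and -0.81 ± 0.15 (adjusted p = 0.00330 and 0.00973). No gene of these 5 lists was called between the genotypes.

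Between LRRK2KO and Ntg cells, averaged over the arms (3 arrays per genotype), 0 of the 29 genes were called by limma, against 0.163% of all genes called higher and 0.302% called lower. At an unadjusted p under 0.05 there were 11 of the 29, and 1383 of all 8598 genes. The lowest adjusted p was 0.145, for Eno2. With a trended and robust variance, 1 gene was called, Taldo1, higher in LRRK2KO cells by 0.53 (adjusted p = 0.0353). That same difference had an adjusted p of 0.149 in the fit used elsewhere, and of 0.0688 to 0.570 under the other alternatives.

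Most differences nevertheless had the same sign. The estimate was positive, that is higher in LRRK2KO cells, for 25 of the 29 genes, against 50.1% of all genes, with a median of 0.30 against 0.00. In all 3 arms 18 of the 29 were higher in LRRK2KO cells (62.1%), against 19% of all genes, and 2 (Hk3 and Vegfa) were lower in all 3 arms, against 20.2% of all genes. For Vegfa this holds for the brightest probe only. After LPS for 24 h its second, dim probe was at 5.52 in LRRK2KO cells against 4.86 in Ntg cells. With arrays scaled to the median of all probes, the members' median was 0.16 and that of all genes was -0.13. Genes of 1 pathway on the same 6 arrays are not independent of each other, so these counts carry no test.

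Slc16a3 differed by 0.46 ± 0.12 between LRRK2KO and Ntg cells (adjusted p = 0.166), by 0.34 after LPS for 24 h, 0.49 after LPS for 6 h and 0.53 after PBS. Its second, dim probe differed by -0.44 and was lower on the LRRK2KO array in each arm, so that with the probes averaged the difference was 0.01 (adjusted p = 0.986). Slc2a1 differed by 0.37 ± 0.12 (adjusted p = 0.240), Hk1 by 0.52 ± 0.14 (adjusted p = 0.166) and Taldo1 by 0.53 ± 0.13 (adjusted p = 0.149), each positive in all 3 arms. Hif1a differed by -0.14 ± 0.16 (95% interval -0.52 to 0.25), Upp1 by -0.22 ± 0.14 and Acod1 by 0.33 ± 0.19, with signs that varied between arms. Vegfa differed by -0.51 ± 0.15 (adjusted p = 0.194). For 2 genes, Egln1 and Egln3, every LRRK2KO array was above every Ntg array, against 2.21% of all genes, and for 0 genes every LRRK2KO array was below, against 3.64%. Of the other 2 Egln1 probes, 1 overlapped, with 6.14 in LRRK2KO cells against 6.57 in Ntg cells after LPS for 24 h and 6.08 against 6.19 after PBS. Egln3 was below detection on all Ntg arrays, so that only a bound can be given, at least 1.08-fold higher in LRRK2KO cells (adjusted p = 0.215, detected on 2 of 3 LRRK2KO arrays). It entered the tested genes only through its detection on LRRK2KO arrays. Its place above the Ntg arrays, here and in the counts of signs, is therefore not independent of the detection filter.

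Other transcripts moved with genotype on these arrays. Of the 13 tested microglia markers, 1 was called higher in LRRK2KO cells, Olfml3 (1.5 ± 0.17, adjusted p = 0.0389), and 0 were called lower; their median difference was 0.25, beside 0.30 for the metabolic genes and 0.00 for all genes. Cx3cr1 differed by 1.73 ± 0.39 (adjusted p = 0.130). The markers went both ways: Trem2, Itgam, C1qa, C1qb and C1qc had differences of -0.22 to -0.12, none of them called. Of 7 choroid plexus markers 4 were tested. In LRRK2KO cells 3 were called lower and 0 higher, against 0.302% and 0.163% of all genes. These were Ttr (-3.25, adjusted p = 0.0468), Ecrg4 and Wfdc2 (adjusted p = 0.0389 for each). The log2 of the markers' summed normalized intensities was 8.11 to 9.53 on the LRRK2KO arrays and 11.39 to 12.81 on the Ntg arrays. Clic6, Ecrg4 and Wfdc2 were below detection on all LRRK2KO arrays. Of 9 markers of monocytes, border macrophages and neutrophils, Mrc1 and Pf4 were tested. Mrc1 was called lower in LRRK2KO cells (-1.72, adjusted p = 0.0389), and Pf4 was not called. The log2 of their summed normalized intensities was 9.999 to 11.16 on the LRRK2KO arrays and 11.39 to 12.48 on the Ntg arrays. The part of all these transcripts in the differences of the metabolic genes was not tested.

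Within single arms, where each genotype has 1 array and no test is possible, 22 genes were higher and 7 lower in LRRK2KO cells after LPS for 24 h (median 0.19), 25 higher and 4 lower after LPS for 6 h (0.36), and 22 higher and 7 lower after PBS (0.23). Of all genes, 46.5%, 53.6% and 48.1% were higher in these arms, in the same order, with medians of -0.03, 0.03 and -0.01. With detection required on the brighter array, differences of 2-fold or more were seen in 2 genes after LPS for 24 h, against 3.93% of all genes, and in 0 genes after LPS for 6 h and after PBS, against 3.49% and 2.74%. The 2 genes were Eno2, at 6.57 in LRRK2KO cells against 5.54 in Ntg cells, and Egln3, at 5.69 against 4.69. Both are dim, and without background correction neither reached 2-fold. Egln3 was among the tested genes only because of its detection on LRRK2KO arrays.

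The LPS response of LRRK2KO cells minus that of Ntg cells was at least 2-fold for 0 of the 29 genes at LPS 24 h against PBS (2.64% of all genes), for 1 at LPS 6 h against PBS (5.14%) and for 0 between the LPS times (3.36%). The gene was Pdk1, whose difference between LPS 6 h and PBS was 0.08 in LRRK2KO cells and -1.27 in Ntg cells. LRRK2KO minus Ntg was 0.90 for Pdk1 after LPS for 6 h, where the Ntg array was low, and -0.44 after PBS, and both pairs enter the value. Without background correction the response difference stayed under 2-fold.

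**Figure D4:**
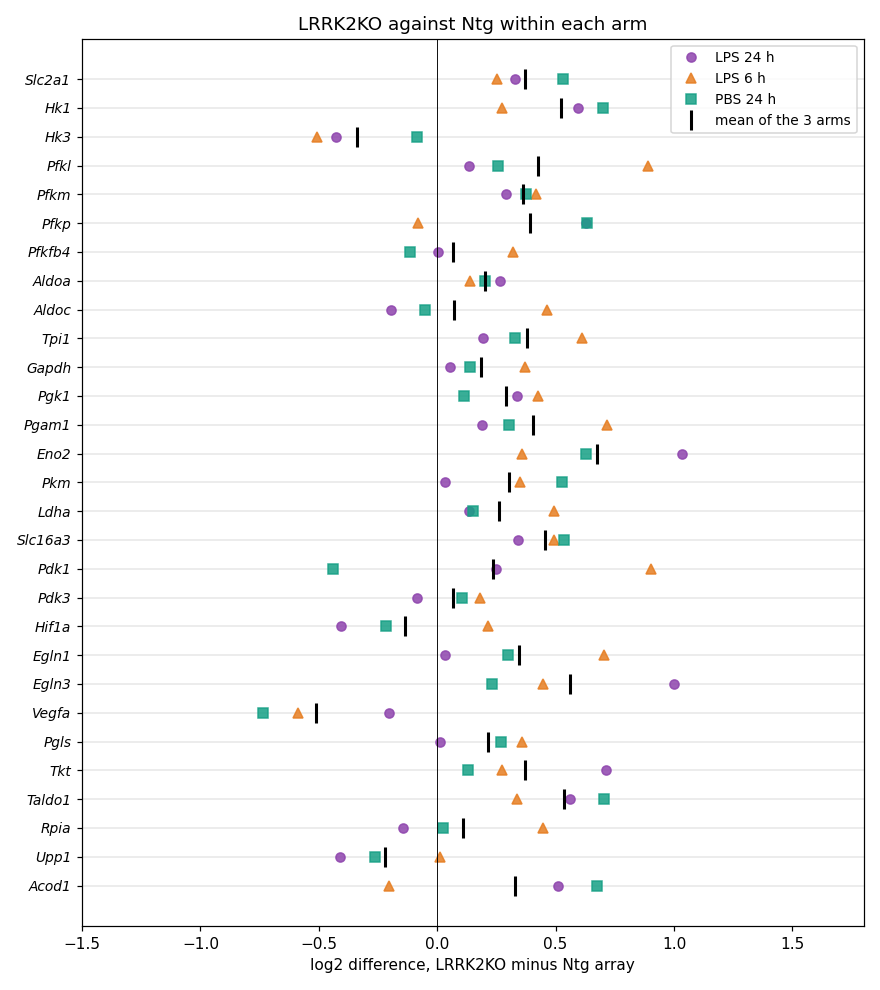
LRRK2KO minus Ntg log2 difference (horizontal axis) of the 29 tested genes (rows); each marker is 1 pair of arrays, with its shape giving the arm, and the black tick is the mean of the 3 arms. Most markers lie to the right of 0, and those of Hk3 and Vegfa lie to its left in all 3 arms.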

How the data were processed

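RNA from LRRK2KO and Ntg microglia in 3 arms was hybridised to Illumina beadchips, with 1 array per group, and the titles gave each sample's group. Per the file headers, the deposited unnormalized table has an intensity and a detection p-value for each of 45281 probes on each array. The submitters' processing notes name BeadStudio, with no version given in the sources used here. A second table, deposited by the authors, holds intensity values that are quantile normalized without background subtraction, as read from the values, and served as an alternative.

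Background was corrected with limma 3.58.1 (R 4.3.3) by neqc from the detection p-values (normexp, offset 16), with quantile normalization next and log2 last. Gene symbols came from the platform annotation: 34885 had 1 symbol, 18 several and 10378 none. Of 15553 probes at a detection p under 0.01 on at least 2 arrays, those with 1 symbol entered, and the brightest probe stood for its gene, which left 8598 genes. The fit (lmFit, eBayes) had genotype and arm as terms and 3.88 prior degrees of freedom, p-values were two-sided, and the code was tested on simulated data. For Egln3, undetected on all arrays of 1 side, a bound is its mean over a floor, which is on each array the lowest detected signal or the probe's own signal, whichever is higher. Differences between single arrays have no test and were counted from 2-fold upwards where the brighter array passed detection; a difference of responses needed detection on 2 or more of its 4 arrays.

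The 38 genes and the further lists were chosen with earlier results of these data known. All tested genes of the 38 are described, and up to 4 called genes per further list were eligible to be named, those with the greatest change. Alternatives were the background correction, offset, scaling, detection filter, averaging of probes, the authors' processed values, a trended and robust variance, and leaving out each array. Scaling to the median of all probes was added after seeing the data. The number of arrays limits the precision.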

Additional observations from a re-analysis of the deposited data

Results flagged for a closer look

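For the brightest probes of Pfkl and Egln1 the genotypes moved in opposite directions between the LPS times. At LPS 24 h against LPS 6 h, Pfkl differed by -0.25 in LRRK2KO cells and by 0.51 in Ntg cells, so the LRRK2KO difference minus the Ntg difference was -0.76. For Egln1 these values were -0.37 in LRRK2KO cells and 0.30 in Ntg cells, and their difference was -0.67. Each rests on 4 single arrays, and the difference between the genotypes was not tested. The dimmer Pfkl probe moved the reverse way in both genotypes. In LRRK2KO cells it was at 5.94 after LPS for 24 h and 5.34 after LPS for 6 h. In Ntg cells it was at 5.30 and 5.53. A further Egln1 probe moved as the brightest did, with 6.14 and 6.78 in LRRK2KO cells and 6.57 and 5.57 in Ntg cells. Another Egln1 probe had 6.08 and 6.07 in LRRK2KO cells and 5.46 and 5.14 in Ntg cells. Pgd, which was left out of the comparisons, passed detection on 1 array, LRRK2KO after LPS for 6 h, with an intensity of 110.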

How the results depend on the processing

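No paired analysis was possible because the labels give every group the same replicate number, 1, with 1 array per group. Besides the calls, 85 of the members' values were uncalled, and 34 of those changed sign under some alternative. Of the called genes, 6 of 11 at LPS 24 h against PBS, 9 of 12 at LPS 6 h against PBS and 4 of 8 between the LPS times were called under every alternative other than leaving out an array; Upp1, one of them, could not be tested among genes detected on all 6 arrays. With no detection filter (19057 genes tested), 7 members were called at LPS 24 h against PBS. The trended and robust variance gave 1 call between genotypes in place of 0. Leaving out 1 array gave 2 to 12 calls at LPS 24 h against PBS, 7 to 11 at LPS 6 h against PBS, 1 to 8 between the LPS times and 0 to 0 between the genotypes; these fits have 1 residual degree of freedom. Averaging probes turned Pkm at LPS 6 h against PBS to 0.58 (adjusted p = 0.0357), against -0.10 for its brightest probe. Members differing 2-fold between genotypes at LPS 24 h numbered 0 without background correction, with an offset of 50 or with the authors' processed values, and 1 among genes detected on all 6 arrays; at PBS they numbered 1 with an offset of 50, scaling to the median of all probes or averaged probes. The same 3 settings gave 1 member whose response to LPS for 24 h against PBS differed 2-fold. For the response to LPS for 6 h the number was 0 without background correction or with the authors' values and 2 with scaling to the median of all probes. Signals close to background limit Egln3, Vegfa, Aldoc and the PBS level of Upp1.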
